A study of Homo sapiens with 16 samples.

Results

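The 46 genes described here are interferon-stimulated genes (ISGs) of the antiviral response, together with RNA and DNA sensors, transcription factors of the STAT and IRF families and the interferon genes IFNB1 and IFNL1. The rule lists them by name and uses no measured value, although it was drawn up with earlier results of these data known, and all 46 were among the 39007 genes of the expression table. A mean above 1 CPM (counts scaled to the library's total) was reached by 45 of them and by 13249 genes in all, and these were the genes tested. IFNB1 stayed below this limit. IFNL1 passed it with a mean of 2.53 CPM, from 0.0436 at P0, 1.94 at P3, 1.64 at P7 and 6.50 at P15.

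Interferons are secreted proteins that infected or damaged cells use to warn themselves and their neighbours. Sensors such as RIG-I (DDX58) and MDA5 (IFIH1) detect foreign or misplaced nucleic acid and switch on interferon genes. The secreted interferon binds its receptor, JAK kinases phosphorylate STAT proteins, and STAT2 and IRF9 are part of ISGF3, the complex that binds the interferon-stimulated response element (ISRE) of ISG promoters. Some ISGs, the IFIT genes and RSAD2 among them, can also be induced directly by IRF3 without interferon.

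T24 is an established human bladder cancer cell line. Its derivative GRC1 was selected stepwise with gemcitabine, a nucleoside analog that stops DNA synthesis, at 1.5 µM for 72 h in each round, and 4 libraries each were sequenced from parental T24 (P0) and from the early (P3), intermediate (P7) and late (P15) phases of GRC1. All cells were grown in DMEM with serum and antibiotics, and the culture description of the libraries names no drug at harvest. GRC1 is 1 of 4 lines derived in this way and the others were not sequenced here, so a change belongs to this line, and the number of selection rounds cannot be told apart from time in culture. Nothing in the descriptions says that the 4 libraries of a phase were separate cultures, so p-values measure only the spread between these libraries. The library titles end in sample numbers, some of which recur in another phase, and the labels used here name no sequencing run. A difference between runs was therefore not modelled.

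The libraries held an estimated 33.35 to 49.8 M counts, so that 1 count was 0.0201 to 0.030 CPM. Of the epithelial markers, KRT7, KRT8 and KRT18 were expressed in every phase, while CDH1, KRT5, TP63, UPK1B and UPK3A were near 0 throughout. The summed level of the 13 urothelial and epithelial markers was 2120 to 2190 CPM at P0, 2370 to 2510 at P3, 1690 to 1840 at P7 and 677 to 755 at P15. The 11 immune markers found summed to 0.261 to 8.99 CPM over all libraries, with PTPRC, which marks all leukocytes, near 0, and the 8 fibroblast and endothelial markers summed to 2.33 to 29.9 CPM. P0 replicate 2 stood apart within its phase for these ISGs: it was the highest of the 4 parental libraries for 31 of the 45 tested members (68.9%), against 30.7% of all tested genes. Counts of calls and the genes whose call turns on it are given with and without it.

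Sequence upstream of the start was listed for 36 of the 46 genes (RefSeq, GRCh38.p14). The ISRE core GAAANNGAAA was searched on both strands of the 250 bases before each listed start. It was found for 24 of the 36 genes (66.7%), against 3.71% of 27305 genes with such a sequence. The palindromic GAS core TTCNNNGAA, an element of interferon gamma responses, was found for 11 (30.6%), against 8.09%. The 9 stretches that follow belong to genes that separate the patterns described below: IFIT1, IFIT3, HERC5 and ISG15 were higher at P3, IFI44 and IFI44L are neighbours that moved apart, IFI27 and IFITM3 are among those that fell furthest, and IFNL1 was highest at P15. They lie at chr10:89392373-89392545, chr10:89327747-89327940, chr4:88456869-88457118, chr1:1013247-1013496, chr1:78649539-78649788, chr1:78620198-78620381, chr14:94110486-94110677 and chr19:39296157-39296406 on the plus strand and at chr11:320861-321110 on the minus strand, each read 5′ to 3′ towards the listed start. Where a gene had several listed starts, the one with the most ISRE matches was used. The stretches of IFIT3, ISG15, IFI44L, IFI27 and IFITM3 lie within the GENCODE 44 bounds of their genes. Bases that are part of an annotated exon (GENCODE 44) were left out, and capitals mark ISRE matches, where overlapping matches run together. Of the 2 matches of IFI44L, the one nearer the start runs into the bases left out and is not marked.
IFIT1: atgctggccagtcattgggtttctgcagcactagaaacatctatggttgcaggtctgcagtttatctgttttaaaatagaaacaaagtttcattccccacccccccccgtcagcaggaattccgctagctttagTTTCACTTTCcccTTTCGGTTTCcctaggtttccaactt
IFIT3: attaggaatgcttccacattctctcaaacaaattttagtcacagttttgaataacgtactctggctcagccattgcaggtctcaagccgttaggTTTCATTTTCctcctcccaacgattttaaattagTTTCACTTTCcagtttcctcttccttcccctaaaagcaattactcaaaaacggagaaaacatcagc
HERC5: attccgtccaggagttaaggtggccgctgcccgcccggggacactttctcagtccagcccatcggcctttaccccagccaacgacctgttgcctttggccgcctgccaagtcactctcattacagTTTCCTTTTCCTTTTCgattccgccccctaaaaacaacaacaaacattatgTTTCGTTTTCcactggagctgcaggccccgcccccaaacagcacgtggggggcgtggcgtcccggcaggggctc
ISG15: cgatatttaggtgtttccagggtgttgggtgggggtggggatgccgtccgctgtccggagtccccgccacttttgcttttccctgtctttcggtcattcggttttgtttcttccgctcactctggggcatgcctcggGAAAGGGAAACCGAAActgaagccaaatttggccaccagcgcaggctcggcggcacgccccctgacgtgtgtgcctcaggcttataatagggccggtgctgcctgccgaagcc
IFI44: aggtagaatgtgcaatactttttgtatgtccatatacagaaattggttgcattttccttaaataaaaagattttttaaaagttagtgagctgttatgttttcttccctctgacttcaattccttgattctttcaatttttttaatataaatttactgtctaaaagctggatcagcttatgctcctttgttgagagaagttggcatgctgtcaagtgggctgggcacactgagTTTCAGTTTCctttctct
IFI44L: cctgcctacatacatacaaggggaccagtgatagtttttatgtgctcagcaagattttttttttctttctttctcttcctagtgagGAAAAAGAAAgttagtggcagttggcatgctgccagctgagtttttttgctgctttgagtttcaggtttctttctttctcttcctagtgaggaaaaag
IFI27: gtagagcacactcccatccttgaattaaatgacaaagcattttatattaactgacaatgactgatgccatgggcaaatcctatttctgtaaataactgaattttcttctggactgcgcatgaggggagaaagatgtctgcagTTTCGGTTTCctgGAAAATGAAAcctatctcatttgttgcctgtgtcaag
IFITM3: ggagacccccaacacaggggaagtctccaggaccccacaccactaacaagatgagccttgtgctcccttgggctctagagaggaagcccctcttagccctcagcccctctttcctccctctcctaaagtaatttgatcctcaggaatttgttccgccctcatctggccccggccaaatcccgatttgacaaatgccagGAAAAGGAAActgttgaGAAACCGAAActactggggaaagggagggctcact
IFNL1: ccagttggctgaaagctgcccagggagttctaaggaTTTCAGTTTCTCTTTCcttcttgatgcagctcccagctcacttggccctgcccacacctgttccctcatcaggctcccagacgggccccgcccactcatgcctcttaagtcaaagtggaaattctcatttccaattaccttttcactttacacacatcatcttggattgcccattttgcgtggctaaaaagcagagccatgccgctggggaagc

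All 5 members with a listed sequence among the 7 that rose at P3 held an ISRE match, as did all 4 among the 5 that fell. A GAS match was found in 0 of the former and 3 of the latter. The same core thus stood before listed starts of genes that moved in opposite directions, and these letters alone say nothing about which factor was bound.

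Values are log2(CPM + 1), fold changes are differences on that scale and understate the change of low genes, and means are given ± SD over the 4 libraries of a phase. A gene was called at a limma adjusted p below 0.05 and a change of at least 2-fold. At early phase P3 against parental P0, 7 members were called higher (15.6%, all tested genes 1.95%) and 5 lower (11.1%, all tested genes 2.51%). At P7 against P0, 10 were called higher (22.2%, all tested genes 1.86%) and 4 lower (8.89%, all tested genes 1.52%). The early change therefore ran in both directions, with a median over the members of -0.22 at P3 and 0.08 at P7. Without P0 replicate 2, the counts were 9 higher and 5 lower at P3, with ISG15 (1.02) and IFI44 (1.04) added, and 10 and 4 at P7. In bulk RNA, fewer cells expressing a gene and less RNA per cell cannot be told apart.

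**Figure D1:**
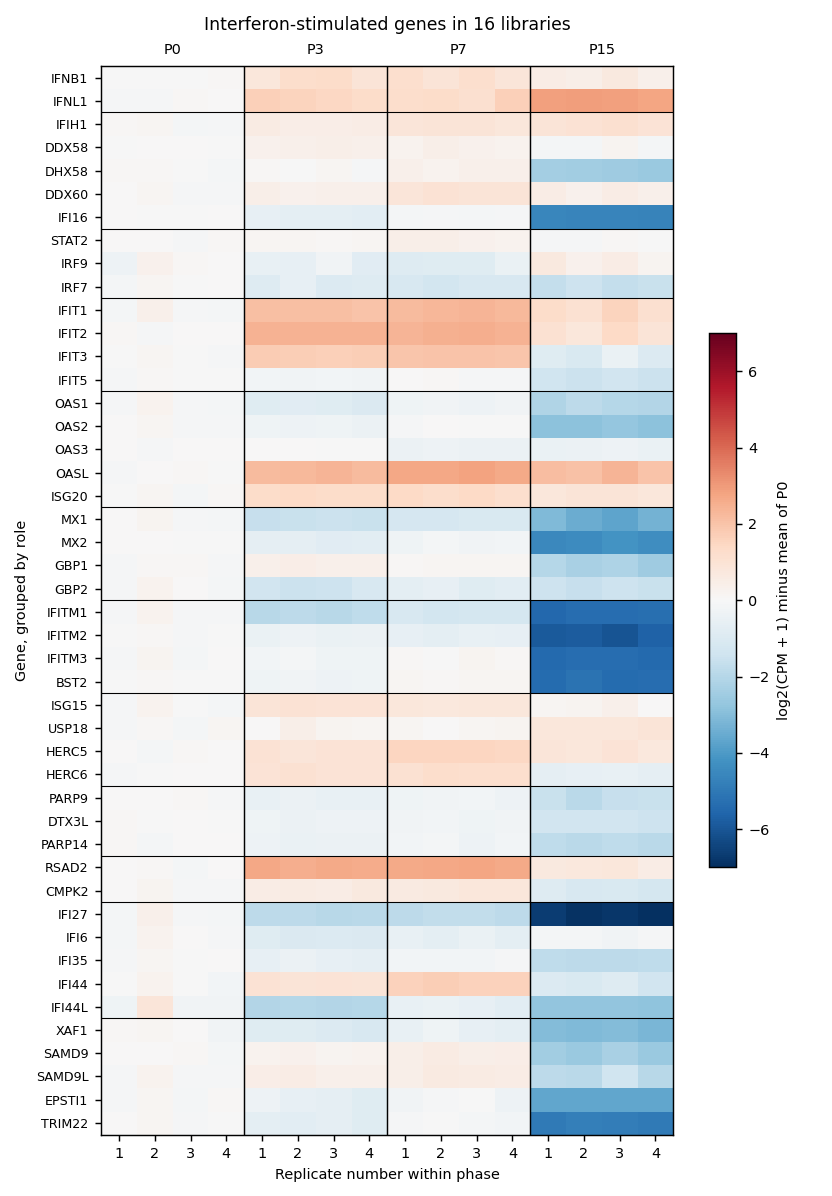
Log2(CPM + 1) of each of the 46 genes (rows, grouped by role with lines between groups) in each of the 16 libraries (columns, replicate number within phase), as the difference from the mean of the 4 P0 libraries (red higher, blue lower). IFIT1, IFIT2, OASL and RSAD2 are red at P3 and P7, and IFI27, IFITM1, IFITM2, IFITM3 and BST2 are the darkest blue at P15.

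Counted by adjusted p alone, 20 members were higher and 23 lower at P3 against P0 (all tested genes 31.4% and 37.3%), 20 and 18 at P7 against P0 (27.9% and 34.2%), 12 and 30 at P15 against P0 (45.3% and 40.9%), 5 and 37 at P15 against P3 (46.1% and 41.1%), and 5 and 39 at P15 against P7 (46.3% and 40.1%). The 4 libraries of one phase did not overlap those of the other for 41 members at P3 against P0 (all tested genes 60.1%), 35 at P7 against P0 (52.6%), 40 at P15 against P0 (79.7%), 33 at P7 against P3 (51.9%), 40 at P15 against P3 (82.1%) and 43 at P15 against P7 (80.8%). Small changes were thus common among all genes in these libraries, and the calls that follow rest on the 2-fold limit.

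Between P7 and P3 only IFI44L was called (1 higher, 2.22%, all tested genes 0.996%) and 0 members were called lower (all tested genes 0.845%) by limma, where 5 were lower at an unadjusted p below 0.05 without reaching 2-fold. By adjusted p alone, 29 members were higher at P7 (64.4%, all tested genes 30.3%) and 5 lower (11.1%, all tested genes 28.0%), with a median of 0.23 against 0.01 over all tested genes. The ISGs thus shifted slightly upward from P3 to P7, by amounts mostly below 2-fold.

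The late phase was different. At P15 against P7, 30 members were called lower (66.7%, all tested genes 12.1%) and 2 higher, IFNL1 and IRF9 (4.44%, all tested genes 13.4%). At P15 against P3, 28 were lower (62.2%, all tested genes 12.2%) and 1 higher, IFNL1 (2.22%, all tested genes 15.0%). Against P0, 27 were lower (60.0%, all tested genes 11.5%) and 5 higher, IFNL1, OASL, IFIT1, IFIT2 and IFIH1 (11.1%, all tested genes 12.2%). The 3 comparisons share the P15 libraries. Their member medians were -1.71, -1.39 and -1.51, beside 0.06, 0.05 and 0.04 over all tested genes. IFIH1 lay on the threshold (1.00), and without P15 replicate 3 it and IFIT2 dropped below 2-fold, which left 3 higher. Without P0 replicate 2, IFI44 dropped below 2-fold, which left 26 lower.

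**Figure D2:**
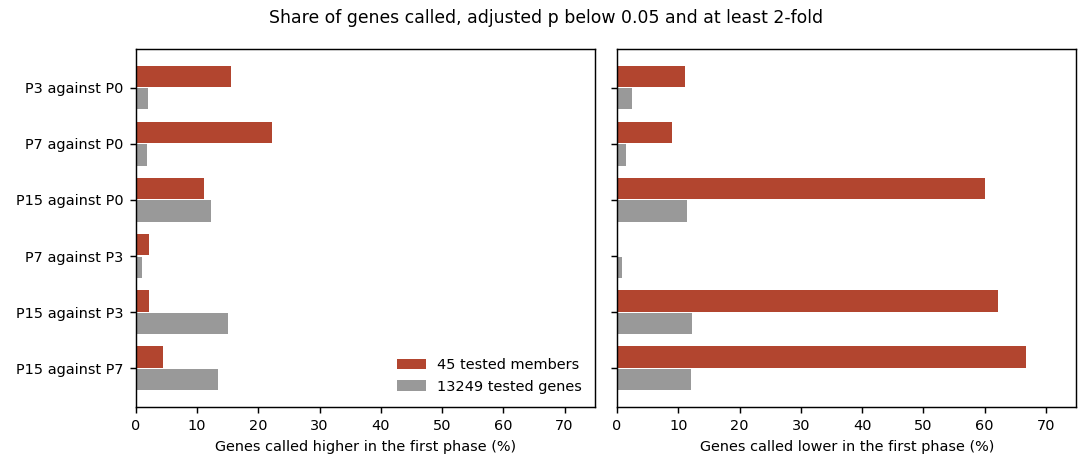
Share of the 45 tested members (red bars) and of all 13249 tested genes (grey bars) called higher (left) or lower (right) in the first-named phase of each comparison, in percent. The member bars for lower calls reach 60.0, 62.2 and 66.7% in the 3 comparisons with P15, where the grey bars stay between 11.5 and 12.2%.

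By level, 15 members were highest at P0 (all tested genes 10.8%), 2 at P3 (10.3%), 11 at P7 (7.43%) and 4 at P15 (37.2%), at an adjusted p below 0.05 against each other phase. The 2 of P3 were ISG15 and GBP1, and the 4 of P15 were IFIH1, IRF9, USP18 and IFNL1, of which IFIH1 exceeded P7 by only 0.12 and did not pass without P15 replicate 3 (adjusted p = 0.2 by limma). Lowest were 10 at P0 (8.91%), 1 at P3 (12.5%, IFI6), 0 at P7 (7.3%) and 28 at P15 (32.3%). The mean of 8 members was below 1 CPM at P15 (IFI27, IFI44L, IFITM1, MX2, XAF1, EPSTI1, TRIM22 and IFNB1), where at P0 only IFNB1 and IFNL1 were below it.

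The interferon genes themselves were at 0 to 4 counts in the parental libraries. IFNB1, on chromosome 9 (21077104 to 21077942, minus strand, GRCh38), encodes interferon beta, a type I interferon that most cell types can make. Its values were 0.00, 0.00, 0.00 and 0.08 in the P0 libraries, 0.84, 1.23, 1.29 and 0.94 at P3, 1.18, 0.94, 1.18 and 0.86 at P7 and 0.54, 0.41, 0.69 and 0.39 at P15. These correspond to about 0 to 2, 30 to 60, 32 to 48 and 14 to 22 counts per library. Each GRC1 phase lay above P0 without overlap, and P15 lay below P3 and P7. Exact permutation tests gave p = 0.0286, the smallest that 4 against 4 allows, for every pair of phases (adjusted p = 0.0343 over 12 tests) except P7 against P3 (p = 0.686). In a limma fit with no filter on low values IFNB1 rose by 1.06 ± 0.11 at P3 (adjusted p = 5.8e-07).

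IFNL1, on chromosome 19 (39296407 to 39298673, plus strand), encodes interferon lambda 1, a type III interferon that acts on epithelial cells. It took another course. Its values were 0.00, 0.00, 0.16 and 0.08 at P0, 1.71, 1.61, 1.53 and 1.34 at P3, 1.28, 1.33, 1.18 and 1.74 at P7 and 2.91, 2.96, 2.94 and 2.81 at P15, or about 0 to 4, 51 to 85, 44 to 91 and 237 to 288 counts. P15 exceeded every other library. IFNL1 rose at P3 against P0 (log2 fold change 1.49 ± 0.11 SE, limma adjusted p = 1.6e-11) and again at P15 against P7 (log2 fold change 1.52 ± 0.11 SE, limma adjusted p = 2.2e-12). P7 and P3 overlapped (-0.17, limma adjusted p = 0.2). The near-identical paralogs IFNL2 and IFNL3, between which reads could be split, were at about 79 to 100 and 73 to 120 counts at P15 and at 0 to 2 at P0. IFNB1 and IFNL1 were thus both higher at P3 and P7 than at P0 and parted at P15.

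**Figure D3:**
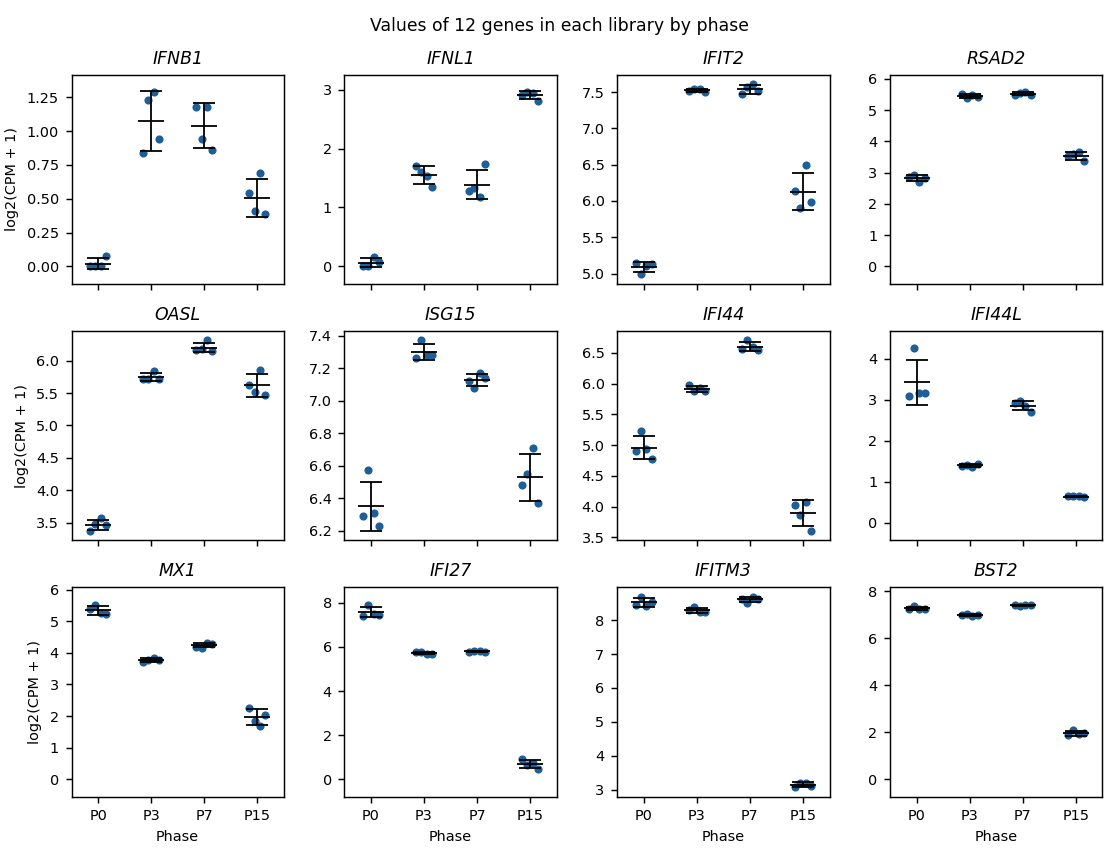
Log2(CPM + 1) of 12 genes in each library (points) by phase, with the mean and SD of the 4 libraries (bars), each panel on its own vertical scale. IFNB1 falls at P15 while IFNL1 reaches its highest values there, and IFIT2, RSAD2 and OASL stay above P0 at P15 while MX1, IFI27, IFITM3 and BST2 fall below it.

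Among the 5 sensors, none was called at P3 or P7 against P0, where 1.52 to 2.51% of all tested genes were called in each direction. By adjusted p alone, 3 were higher at P3 (all tested genes 31.4%) and 1, IFI16, was lower (-0.68, all tested genes 37.3%). The late phase split the sensors. IFIH1 (MDA5, a sensor of long double-stranded RNA) was higher at P3 and P7 than at P0, from 4.51 ± 0.12 at P0 to 5.00 ± 0.049 at P3, 5.38 ± 0.049 at P7 and 5.51 ± 0.095 at P15, where the last step was 0.12 (limma adjusted p = 0.047) with all libraries and 0.08 (limma adjusted p = 0.2) without P15 replicate 3. DDX58 (RIG-I, a sensor of RNA with a 5′ triphosphate, named RIGI in the annotation) stayed within 0.41 in all comparisons, and 43.2% of its exonic bases are shared with another annotated gene. DDX60, a helicase linked to RIG-I signalling, was 0.90 above P0 at P7. DHX58 (LGP2, a regulator of the other RNA sensors) fell at P15 against P7 (log2 fold change -2.83 ± 0.071 SE, limma adjusted p = 2.2e-21).

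IFI16, a sensor of DNA in nucleus and cytoplasm on chromosome 1 (158999968 to 159055155), had the largest range of the sensors. Its values were 6.67, 6.63, 6.63 and 6.69 at P0, 6.07, 5.96, 5.97 and 5.90 at P3, 6.50, 6.6, 6.52 and 6.56 at P7 and 2.09, 2.05, 2.02 and 1.97 at P15. The mean went from 92.4 CPM at P7 to 3.09 at P15. The late fall (log2 fold change -4.51 ± 0.043 SE, limma adjusted p = 5.8e-30) was far larger than the spread of any phase.

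Of the factors that act downstream of the receptor, STAT2, the type I and III specific STAT, was within 2-fold in every comparison, with 5.69 ± 0.062 at P0 and 5.68 ± 0.076 at P15. IRF9, the DNA-binding subunit of ISGF3, was low throughout, at 1.18, 1.81, 1.59 and 1.55 in the P0 libraries, 1.04, 0.96, 1.29 and 0.72 at P3, 0.61, 0.66, 0.68 and 1.07 at P7 and 2.22, 1.86, 2.06 and 1.70 at P15, or about 20 to 145 counts. P15 lay above P7 and P3 without overlap and the other pairs of neighbouring phases overlapped. It rose at P15 against P7 (log2 fold change 1.21 ± 0.14 SE, limma adjusted p = 2.5e-08), and 27.2% of its exonic bases are shared with other annotated genes. Against P0, IRF9 was lower by less than 2-fold at P3 (-0.53) and at P7 (-0.78), at P7 without overlap. IRF7, which amplifies interferon transcription, was also lower early but went the other way at P15 against P7 (-0.42).

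IRF7 values were 6.30, 6.57, 6.44 and 6.47 at P0, 5.55, 5.86, 5.50 and 5.55 at P3, 5.31, 5.16, 5.32 and 5.32 at P7 and 4.79, 4.99, 4.75 and 4.89 at P15. No 2 phases overlapped. It was lower at P3 by less than 2-fold (-0.83) and fell at P7 (log2 fold change -1.17 ± 0.069 SE, limma adjusted p = 4.6e-13) and P15 (log2 fold change -1.59 ± 0.069 SE, limma adjusted p = 1.3e-16) against P0.

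The IFIT proteins bind viral RNA and block its translation, and IFIT1, IFIT2 and IFIT3 were among the strongest early responders. IFIT2 (chromosome 10, 89283694 to 89309271) had values of 5.15, 4.99, 5.10 and 5.13 at P0, 7.51, 7.54, 7.54 and 7.50 at P3, 7.47, 7.57, 7.61 and 7.51 at P7 and 6.14, 5.90, 6.49 and 5.99 at P15. P3 and P7 overlapped and both lay above P15, which lay above P0. It rose at P3 from a mean of 33.1 to 183 CPM (log2 fold change 2.43 ± 0.075 SE, limma adjusted p = 1.7e-18) and fell at P15 against P7 (log2 fold change -1.41 ± 0.075 SE, limma adjusted p = 8.4e-15).

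IFIT1 values were 4.95, 5.42, 4.96 and 4.94 at P0, 7.16, 7.17, 7.17 and 7.09 at P3, 7.28, 7.41, 7.43 and 7.32 at P7 and 6.34, 6.12, 6.61 and 6.18 at P15. The fold change at P3 was 2.08 ± 0.089 and became 2.20 without P0 replicate 2. IFIT3, at 5.96, 6.17, 6.0 and 5.92, then 7.77, 7.74, 7.70 and 7.71, then 7.94, 8.0, 8.02 and 7.98 and last 5.18, 4.96, 5.53 and 5.08, had the largest range of the family. IFIT3 rose at P3 (log2 fold change 1.72 ± 0.074 SE, limma adjusted p = 9.1e-16) and fell at P15 against P7 (log2 fold change -2.80 ± 0.074 SE, limma adjusted p = 5.8e-21) to below its parental level (-0.83), where IFIT1 and IFIT2 stayed above theirs (1.25 and 1.04). IFIT5 did not share the early rise (-0.22 at P3) and fell at P15 against P7 (-1.41). The IFIT genes are similar in sequence, and how reads that fit several of them were counted is not stated.

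OAS proteins make 2′-5′ oligoadenylate, which activates RNase L, while OASL lacks this activity and binds RIG-I. OASL and ISG20, a 3′ exonuclease, were called higher at P3 and the enzymes OAS1, OAS2 and OAS3 were not. By less than 2-fold, OAS1 (-0.89) and OAS2 (-0.34) were lower at P3 against P0. OAS3 changed by -0.01 at P3 and by -0.40 at P7 against P0. OASL (chromosome 12, 121017763 to 121039246) had values of 3.38, 3.48, 3.57 and 3.46 at P0, 5.71, 5.72, 5.84 and 5.71 at P3, 6.16, 6.18, 6.31 and 6.15 at P7 and 5.62, 5.52, 5.86 and 5.47 at P15. Every library of the 3 later phases lay above all 4 of P0. OASL rose at P3 (log2 fold change 2.27 ± 0.064 SE, limma adjusted p = 3.2e-19), P7 (2.73) and P15 (2.15) against P0. ISG20 followed it with 1.33, 1.30 and 0.86, the last below 2-fold.

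OAS2 had values of 5.67, 5.78, 5.54 and 5.59 at P0, 5.33, 5.28, 5.37 and 5.26 at P3, 5.55, 5.69, 5.63 and 5.60 at P7 and 2.79, 2.77, 2.95 and 2.78 at P15. It fell at P15 against P7 (log2 fold change -2.80 ± 0.055 SE, limma adjusted p = 1.4e-23), and OAS1 did too (-1.71 ± 0.082). OAS3, between OAS1 and OAS2 on chromosome 12, was at 6.76 ± 0.014 at P7 and 6.75 ± 0.059 at P15 (-0.01, limma adjusted p = 0.78).

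MX1 and MX2 are dynamin-like GTPases that trap viral nucleocapsids, and the guanylate-binding proteins GBP1 and GBP2 are large GTPases induced mainly by interferon gamma. Against P0 all 4 were called lower at P15 (all tested genes 11.5%). MX1 and GBP2 already fell at P3 (-1.57 and -1.35), MX2 was lower by less than 2-fold (-0.69) and GBP1 was slightly higher (0.37). MX1 values were 5.38, 5.53, 5.27 and 5.22 at P0, 3.71, 3.79, 3.83 and 3.78 at P3, 4.20, 4.17, 4.31 and 4.27 at P7 and 2.27, 1.85, 1.68 and 2.03 at P15.

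MX2 had the largest range of the 4, with 4.80, 4.81, 4.73 and 4.77 at P0, 4.16, 4.15, 3.98 and 4.06 at P3, 4.49, 4.63, 4.53 and 4.59 at P7 and 0.26, 0.36, 0.59 and 0.44 at P15. P15 stood more than 3 log2 units below all other libraries. MX2 fell against P7 (log2 fold change -4.15 ± 0.07 SE, limma adjusted p = 6.4e-25), as did MX1 (-2.28) and GBP1 (-2.36), and GBP2 was lower by less than 2-fold (-0.80).

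The IFITM proteins sit in endosomal and plasma membranes and hinder the fusion of enveloped viruses, and BST2 (tetherin) holds budding virions at the cell surface. These 4 genes fell together at P15 against each other phase (all tested genes 11.5 to 12.2%). IFITM3 (chromosome 11, 319676 to 329475) had values of 8.45, 8.69, 8.41 and 8.55 at P0, 8.31, 8.38, 8.24 and 8.24 at P3, 8.63, 8.50, 8.69 and 8.62 at P7 and 3.08, 3.2, 3.21 and 3.11 at P15. Its mean was 390 CPM at P7 and 7.88 CPM at P15 (log2 fold change -5.46 ± 0.051 SE, limma adjusted p = 4.3e-30).

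BST2 (chromosome 19, 17402939 to 17405630) had values of 7.22, 7.37, 7.24 and 7.25 at P0, 6.96, 7.04, 6.94 and 6.98 at P3, 7.41, 7.35, 7.42 and 7.40 at P7 and 1.87, 2.10, 1.90 and 1.94 at P15. The first 3 phases differed by at most 0.42, and BST2 fell at P15 against P7 (log2 fold change -5.44 ± 0.045 SE, limma adjusted p = 4.3e-31). IFITM2 went from 6.84, 6.94, 6.79 and 6.84 at P0, 6.39, 6.48, 6.39 and 6.42 at P3 and 6.29, 6.19, 6.34 and 6.28 at P7 to 1.00, 1.02, 0.83 and 1.21 at P15 (-5.26 ± 0.059). Only IFITM1 of these 4 genes was called lower before P15.

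IFITM1 values were 5.69, 6.01, 5.65 and 5.64 at P0, 3.79, 3.94, 3.82 and 3.95 at P3, 4.62, 4.46, 4.49 and 4.51 at P7 and 0.26, 0.43, 0.39 and 0.48 at P15. It fell at P3 (log2 fold change -1.87 ± 0.077 SE, limma adjusted p = 3.6e-16), was higher at P7 than at P3 by 0.65 and fell again at P15 against P7 (log2 fold change -4.13 ± 0.077 SE, limma adjusted p = 5e-24). The 3 IFITM genes are close paralogs, and 31.6% of the exonic bases of IFITM1 and 16.3% of those of IFITM3 are shared with other annotated genes.

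ISG15 is a ubiquitin-like protein that HERC5 attaches to target proteins and USP18 removes. HERC6 is a relative of HERC5. At P3 all 4 genes of this system were higher at an adjusted p below 0.05 (all tested genes 31.4%) and none reached 2-fold (all tested genes 1.95%). The changes were 0.95 for ISG15, 0.95 for HERC5, 0.98 for HERC6 and 0.20 for USP18. At P7 HERC5 (log2 fold change 1.5 ± 0.046 SE, limma adjusted p = 1.7e-18) and HERC6 (log2 fold change 1.15 ± 0.051 SE, limma adjusted p = 2.2e-15) were called. At P15 the 4 genes parted.

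HERC6 values were 4.04, 4.08, 4.15 and 4.14 at P0, 5.08, 5.15, 5.06 and 5.04 at P3, 5.15, 5.31, 5.30 and 5.26 at P7 and 3.5, 3.54, 3.6 and 3.47 at P15, so that P15 lay below every other library. It fell against P7 (log2 fold change -1.73 ± 0.051 SE, limma adjusted p = 5.1e-20). ISG15 (-0.60) and HERC5 (-0.68) were lower by less than 2-fold and USP18 was higher (0.72, limma adjusted p = 3.6e-09). ISG15 itself, at 7.30 ± 0.049 at P3, returned to 6.53 ± 0.14 at P15, beside 6.35 ± 0.15 at P0.

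PARP9 and DTX3L form a complex that modifies histones and ubiquitinates proteins in the interferon response, and PARP14 is a mono-ADP-ribosyltransferase. All 3 lie on chromosome 3 and moved in the same direction, slightly lower at P3 and P7 and lower by more than 2-fold at P15. PARP14 values were 7.32, 7.13, 7.27 and 7.26 at P0, 6.89, 6.76, 6.86 and 6.85 at P3, 7.03, 7.13, 6.91 and 7.07 at P7 and 5.46, 5.36, 5.46 and 5.38 at P15. PARP14 fell at P15 against P7 (log2 fold change -1.62 ± 0.046 SE, limma adjusted p = 1.8e-20), as did PARP9 (-1.37) and DTX3L (-1.10).

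RSAD2 (viperin) makes a chain-terminating nucleotide from CTP, and CMPK2, its neighbour on chromosome 2, is a mitochondrial kinase of pyrimidine nucleotides. RSAD2 (6865557 to 6898239) rose most of all members at P3 on the log2(CPM + 1) scale. Its values were 2.87, 2.91, 2.71 and 2.84 at P0, 5.53, 5.38, 5.47 and 5.41 at P3, 5.48, 5.56, 5.58 and 5.49 at P7 and 3.52, 3.59, 3.65 and 3.37 at P15. P3 and P7 overlapped, and P15 lay between them and P0. It rose at P3 (log2 fold change 2.62 ± 0.061 SE, limma adjusted p = 8.7e-21) and fell at P15 against P7 (log2 fold change -2.0 ± 0.061 SE, limma adjusted p = 1.1e-19). CMPK2 was higher by less than 2-fold at P3 (0.58) and P7 (0.72) and fell at P15 against P7 (-1.81). The gene models of the pair overlap at their ends.

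IFI27, a mitochondrial and nuclear membrane protein often used as a marker of interferon exposure, fell furthest of all members on the log2(CPM + 1) scale. On chromosome 14 (94104836 to 94116695), its values were 7.42, 7.92, 7.51 and 7.45 at P0, 5.76, 5.75, 5.66 and 5.70 at P3, 5.76, 5.83, 5.83 and 5.76 at P7 and 0.93, 0.66, 0.74 and 0.48 at P15. P3 and P7 met at 5.76, between P0 and P15. The mean went from 192 CPM at P0 to 51.6 at P3 and 0.638 at P15, a log2 fold change of -1.86 ± 0.086 at P3 and of -6.87 ± 0.086 at P15 against P0.

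IFI44L and IFI44 are related proteins encoded side by side on chromosome 1 (78619902 to 78646145 and 78649796 to 78664078), 3651 bases apart. IFI44L had values of 3.10, 4.25, 3.17 and 3.17 at P0, 1.39, 1.40, 1.35 and 1.44 at P3, 2.91, 2.96, 2.84 and 2.71 at P7 and 0.64, 0.64, 0.64 and 0.62 at P15. IFI44 had 4.91, 5.23, 4.93 and 4.77 at P0, 5.98, 5.88, 5.92 and 5.88 at P3, 6.56, 6.70, 6.59 and 6.55 at P7 and 4.03, 3.87, 4.08 and 3.61 at P15. At P3 IFI44L fell (log2 fold change -2.03 ± 0.16 SE, limma adjusted p = 6.5e-11), by -1.75 without P0 replicate 2, which read 4.25, while IFI44 was higher (0.96 ± 0.083). IFI44 was called at P7 (log2 fold change 1.64 ± 0.083 SE, limma adjusted p = 2.7e-14). From P3 to P7 IFI44L rose again (log2 fold change 1.46 ± 0.16 SE, limma adjusted p = 3.9e-08), and both genes fell at P15 against P7 (-2.22 and -2.70).

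IFI35, which forms a complex with NMI, was lower at P3 (-0.56) and fell at P15 against P7 (-1.66). IFI6, an inhibitor of apoptosis in mitochondria and the endoplasmic reticulum, was the 1 member lowest at P3, with 4.91 ± 0.17 at P0, 3.95 ± 0.079 at P3, 4.31 ± 0.11 at P7 and 4.77 ± 0.064 at P15. It did not share the late fall (0.46 against P7), and 23.1% of its exonic bases are shared with another annotated gene.

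The remaining members, XAF1 (an antagonist of the caspase inhibitor XIAP), SAMD9 and SAMD9L (which restrict growth and poxviruses), EPSTI1 and TRIM22 (a ubiquitin ligase), were not called at P3 or P7 and were all called lower at P15. The shares of all tested genes were 1.52 to 2.51% in each direction at P3 or P7 against P0. They were 11.5 to 12.2% lower at P15 against the other phases. TRIM22 had the largest range, with 5.16, 5.28, 5.04 and 5.10 at P0, 4.47, 4.43, 4.51 and 4.32 at P3, 5.07, 5.13, 5.01 and 4.98 at P7 and 0.20, 0.36, 0.32 and 0.18 at P15. Its mean dropped from 32.1 to 0.203 CPM (log2 fold change -4.78 ± 0.067 SE, limma adjusted p = 1.4e-26). EPSTI1 was listed at 0 in all 4 P15 libraries, where the P7 libraries read 3.37, 3.58, 3.59 and 3.28, about 338 to 546 counts. XAF1 (-2.59), SAMD9 (-2.94) and SAMD9L (-2.31) completed the group, and 38.3% of the exonic bases of XAF1 are shared with a gene on the other strand.

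The early step (P3 against P0) and the late step (P15 against P7) share no libraries, so the 2 can be set beside each other. Of the 7 members called higher early, 4 were called lower late (IFIT1, IFIT2, IFIT3 and RSAD2, 57.1% of the 7 and 13.3% of the 30), IFNL1 was higher both times, and ISG20 and OASL were called neither way late. Of the 5 called lower early, 4 were lower again (IFITM1, IFI27, MX1 and IFI44L, 80% of the 5 and 13.3% of the 30), and GBP2 was not called. Of the 33 members not called at P3, 22 fell late (66.7% of the 33 and 73.3% of the 30), with IFITM2, IFITM3, BST2, TRIM22, IFI16 and MX2 the largest. By adjusted p alone 6 of these 22 were already higher and 15 lower at P3, by less than 2-fold. Over all 45 tested members the share that fell late was also 66.7%. Over all tested genes, 37.8% of the 259 called higher early, 27.6% of the 333 called lower and 11.2% of the others fell late. Without P0 replicate 2, 9 members were called higher early, of which 5 fell late (IFI44 added, 55.6% of the 9), and 21 of the 30 late falls had no early call. Without P15 replicate 2, IFIT1 no longer reached 2-fold at P15 against P7 (-0.98).

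**Figure D4:**
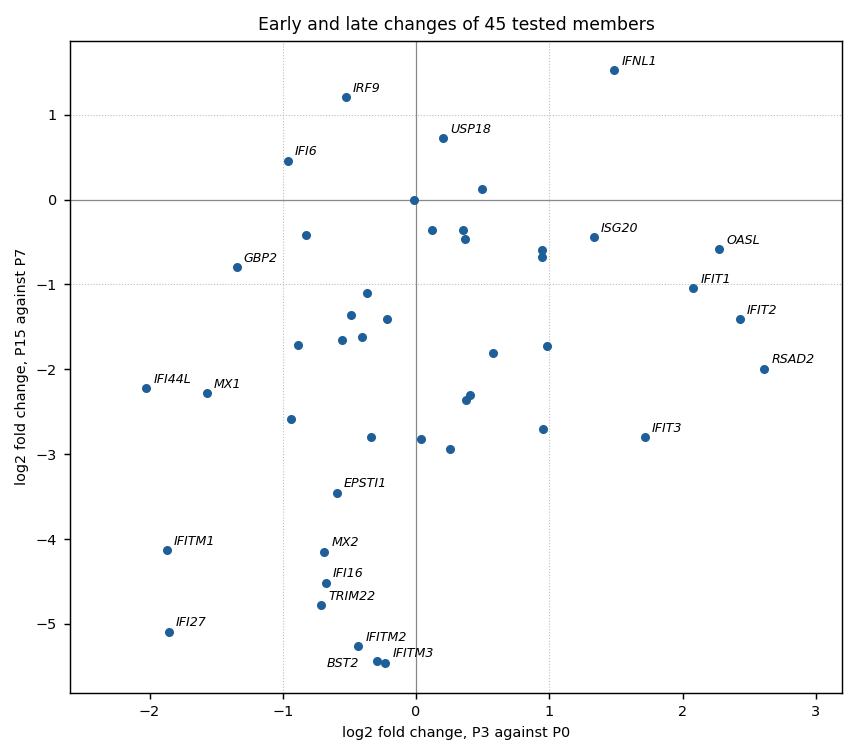
Log2 fold change of each of the 45 tested members at P3 against P0 (horizontal axis) and at P15 against P7 (vertical axis), with dotted lines at 2-fold. IFIT2 and RSAD2 lie at the lower right, IFI27 and IFITM1 at the lower left, IFITM2, IFITM3 and BST2 near the vertical axis below -5, and IFNL1 at the upper right, while the vertical position of EPSTI1, listed at 0 at P15, is no measured fold.

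Many members lie side by side in the genome, which allows neighbours to be compared within the same libraries. The 46 genes lie on 16 chromosomes, and 16 pairs of neighbouring members are less than 500 kb apart. For each pair the difference between the genes was compared between phases by exact permutation tests (two-sided, 32 tests, adjusted p = 0.0352 at the smallest possible p of 0.0286). The change differed between neighbours at that p in 26 of the 32 tests, and in 3 of them the genes moved to opposite sides of 0. The same share was not computed for pairs of other genes, so the 26 are no result about these members. Libraries did not overlap for 60.1% of all tested genes at P3 against P0 and for 80.8% at P15 against P7. Some genes belong to several pairs, so the tests are not independent. All 3 were at P3 against P0: IFI44L (-2.03) and IFI44 (0.96), GBP1 (0.37) and GBP2 (-1.35), and IFIT1 (2.08) and IFIT5 (-0.22).

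At P15 against P7, the widest gap was between IFITM3 (-5.46) and IRF7 (-0.42), which are 283078 bases apart. Among closer neighbours it was between OAS3 (-0.01) and OAS2 (-2.80), with OAS1 (-1.71) on the other side of OAS3. PARP9 and DTX3L, which share a promoter region, did not differ beyond the spread in these exact permutation tests at P3 (p = 0.143) or at P15 against P7 (p = 0.0571). HERC6 and HERC5 moved by 0.98 and 0.95 at P3 (exact permutation p = 0.657) and by different amounts at P15 against P7 (-1.73 and -0.68, exact permutation p = 0.0286).

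The receptors and JAK-STAT components that carry the interferon signal were measured for all 14 genes listed. At P3 against P0 only SOCS1, a feedback inhibitor of JAK kinases, was called (log2 fold change -1.03 ± 0.13 SE, limma adjusted p = 1.5e-07), or 7.14% beside 2.51% of all tested genes. By less than 2-fold, 3 others were higher and 5 lower (all tested genes 31.4% and 37.3% by adjusted p alone). At P7 against P0 none was called, beside 1.86% of all tested genes called higher and 1.52% lower. At P15 against P7, 12 of the 14 were higher at an adjusted p below 0.05 (85.7%, all tested genes 46.3%) and IFNAR1 alone was lower (-0.15, 7.14%, all tested genes 40.1%), with a median of 0.52. Only IFNLR1, the specific chain of the interferon lambda receptor, reached 2-fold (7.14%, all tested genes 13.4%). It went from 2.68 ± 0.12 to 4.15 ± 0.10 (log2 fold change 1.47 ± 0.091 SE, limma adjusted p = 1.6e-13).

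For other genes of this list the changes at P15 against P7 were 0.90 for IFNAR2, 0.80 for IFNGR2, 0.68 for IFNGR1, 0.15 for IL10RB, 0.63 for TYK2, 0.12 for JAK1 and 0.11 for JAK2. The inhibitors changed by 0.46 for SOCS1, 0.64 for SOCS3, 0.58 for PTPN2 and 0.24 for PIAS1. None of the 14 receptor and JAK-STAT transcripts was called lower at P15 against P7, beside 12.1% of all tested genes.

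Upstream of interferon, 20 of the 22 listed adaptors, kinases and factors were tested. None was called at P3 or P7 against P0, where the shares of all tested genes were 1.52 to 2.51% in each direction. At P15 against P7, 7 fell (35%, all tested genes 12.1%) and 1 rose (5%, all tested genes 13.4%). TMEM173 (STING, the adaptor of cytosolic DNA sensing) went from 6.57 ± 0.0096 to 1.95 ± 0.20 (log2 fold change -4.62 ± 0.064 SE, limma adjusted p = 1.4e-26) and the kinase IKBKE from 5.08 ± 0.099 to 1.66 ± 0.29 (-3.43 ± 0.089). TICAM1 (TRIF, the adaptor of TLR3) rose by 1.53 ± 0.051. Of 20 further interferon genes listed, 9 were in the table and none reached a mean of 1 CPM. IFNG, IFNA8 and IFNL4 were listed at 0 in all 16 libraries.

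A further 51 ISGs outside the 46 were listed and 49 tested. At P3 against P0, 6 rose (12.2%, all tested genes 1.95%) and 1 fell (2.04%, all tested genes 2.51%). At P7 against P0, 5 rose (10.2%, all tested genes 1.86%) and 1 fell (2.04%, all tested genes 1.52%). At P15 against P7, 3 rose (6.12%, all tested genes 13.4%) and 16 fell (32.7%, all tested genes 12.1%), with a median of -0.70. The chemokine gene CCL5 rose most at P3, from 0.70 ± 0.28 at P0 to 5.68 ± 0.067 (log2 fold change 4.98 ± 0.096 SE, limma adjusted p = 3.1e-22). It was at 5.07 ± 0.019 at P7 and highest at P15, at 6.09 ± 0.17. LAMP3 rose at P3 (1.36) and at P15 against P7 (2.14). At P15 against P7, RBCK1 (1.11) and CCL5 were the other genes of the list that rose. CXCL10 rose at P7 (1.44), and the death ligand TNFSF10 fell at P3 (-1.93) and P7 (-1.48) against P0. APOL1 (-5.22) and GBP4 (-3.25) fell most at P15 against P7.

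The late fall coincided with the lower summed level of urothelial and epithelial markers given above. Of the 6 tested, 4 were called lower at P15 against P7 (66.7%, all tested genes 12.1%). KRT7 (-5.60) and KRT19 (-3.72) had the largest log2 falls, and KRT8 went from 9.41 to 6.155. KRT18 went the other way, from 8.825 to 9.307, as did UPK1A, which was not tested, from 0.6725 to 1.567. KRT19 and EPCAM were already lower at P7 against P0 (-2.69 and -1.10). The single immune marker tested, CD14, fell at P3 against P0 (-1.40) and at P15 against P7 (-2.69), and the immune list was lowest at P15, at 0.261 to 0.722 CPM. CDH5 (-2.45 at P3, -2.74 at P7) and PDGFRB (-1.57 and -1.24) fell against P0, and COL1A1 (2.02) and PDGFRB (1.09) rose at P15 against P7. The part of these shifts in the ISG result was not tested.

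Within phases, single libraries stood above or below the others for many ISGs. In P0 replicate 2, the median member lay 0.167 above the mean of the other 3 parental libraries, beside 0.003 for all tested genes. IFI44L stood out by 1.1, IFIT1 by 0.47 and IFI27 by 0.46, while HERC5 was lower by 0.15 there. Library P15 replicate 3 was highest of its phase for 22 members (48.9%, all tested genes 38.8%), with SAMD9L above the others by 0.51, IFIT2 by 0.48 and IFIT3 by 0.46, while MX1 was lower by 0.37. P15 replicate 4 was lowest for 20 members (44.4%, all tested genes 20.4%). Without P15 replicate 4, DTX3L at P15 against P3 (-1.0 to -0.97) and IFI44 at P15 against P0 (-1.06 to -0.97) lost their calls and IRF9 at P15 against P3 gained one (0.96 to 1.04). Other single libraries changed the call of IFI6 and XAF1 at P3 against P0, IFIH1 at P15 against P0, DTX3L and IRF9 at P15 against P3 and IFIT1 at P15 against P7, all with changes close to 2-fold.

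**Figure D5:**
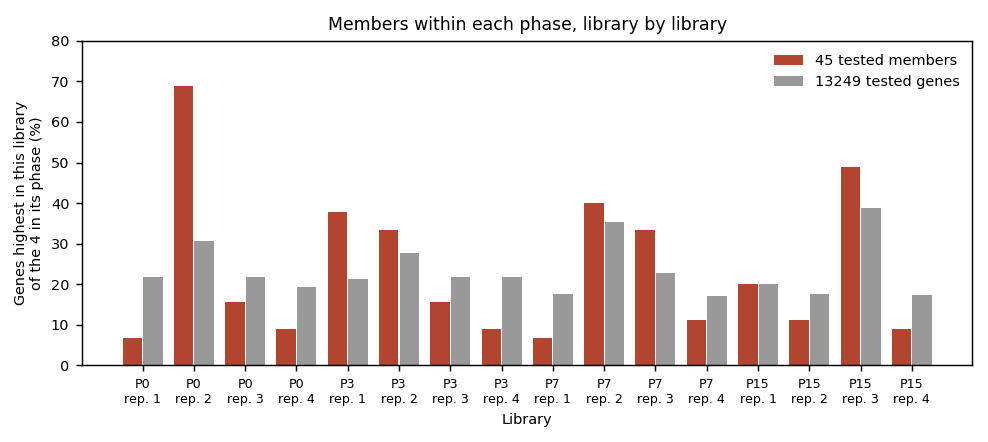
Share of the 45 tested members (red bars) and of all 13249 tested genes (grey bars) for which a library held the highest value of the 4 in its phase, in percent, for each of the 16 libraries. The bar of P0 replicate 2 reaches 68.9% for the members, and that of P15 replicate 3 reaches 48.9%.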

How the data were processed

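RNA of T24 cells and the GRC1 line was sequenced in 16 libraries, 4 per phase. Per the study's methods, the authors aligned paired-end reads with STAR 2.6.1a to GRCh38, counted them on genes with featureCounts and computed CPM. The deposited values are log2 of CPM plus 1, rounded to 2 decimals, and carry no quantile normalization or centring although the methods describe both. The strand setting, the annotation release and the treatment of reads matching more than 1 gene are not given in the sources used here. The spacing of the lowest values put the depth at 33.35 to 49.8 M counts. Within a phase, the variance between 2 libraries was 2.29 to 7.27 times what counting alone gives, so each library was counted once.

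Phases were compared with limma 3.58.1 (R 4.3.3) on the log2 values, with 1 coefficient per phase over 16 libraries, variance priors that follow the mean level, and p-values adjusted by Benjamini-Hochberg over the 13249 genes whose mean exceeded 1 CPM. IFNB1, IFNL1 and neighbouring genes were compared with two-sided exact permutation tests (scipy 1.17.1). Positions are from GENCODE 44 on GRCh38 and upstream sequences from RefSeq on GRCh38.p14.

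The members, lists and comparisons were chosen with earlier results of these data known. Named are IFNB1, IFNL1, the member of each role with the largest range of phase means, the 3 called members with the largest rise and the 3 with the largest fall in each comparison, the genes of the receptor list, of which 1 is not reported here by name, and up to 2 risers and 2 fallers of each further list. Other members are given with fewer values. The library values of MX1, IFI44 and EPSTI1 were added after they were seen. Alternatives were other filters, pseudocounts of 0.1 and 5 CPM, quantile normalization, a shift to the same median, the treat test of limma, calls without a fold limit, fits of 2 phases only, a constant variance prior, a replicate block and the omission of single libraries.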

Additional observations from a re-analysis of the deposited data

Results flagged for a closer look

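A library of a phase was noted where the gap between it and the nearest of the other 3 was large for the range of the 4 (Dixon's ratio of gap to range, 95% level). This held for 20 of 184 groups, where chance gives about 1 in 20, or 9.2, and the 20 fell in 10 libraries. That rate holds for independent, normally distributed values, while these are rounded and genes move together within a library. The share over all tested genes was not computed, so the 20 are not shown to be particular to the members.

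P0 replicate 2 was higher than the other parental libraries for IFI44L (ratio 0.94, range 1.15 on the log2 scale), SAMD9L (0.97), IFIT1 (0.96), IFITM1 (0.86) and OAS1 (0.84) and lower for OAS3 (0.89, range 0.09). P15 replicate 3 was higher for DDX58 (0.97), OAS2 (0.89) and SAMD9L (0.85). P3 replicate 2 was higher for ISG20 (0.92), IRF7 (0.86) and PARP9 (0.86) and lower for HERC5 (0.85). Single genes stood apart in the others: OASL was higher in P3 replicate 3 (0.92), IFIT1 lower in P3 replicate 4 (0.88), IRF7 lower in P7 replicate 2 (0.94), IRF9 higher in P7 replicate 4 (0.85), PARP9 lower in P15 replicate 2 (0.88), IFI44L lower in P15 replicate 4 (1.00, over a range of only 0.02) and IFNB1 higher in P0 replicate 4 (1.00, over a range of 0.08, where the other 3 were listed at 0). P0 replicate 2 held 6 of the 20. A cause was not tested.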

How the results depend on the processing

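No called result reversed under any alternative tried, and of the single-gene results 7147 stayed on the same side of an adjusted p of 0.05, 63 lost it and 20 gained it. With no fold threshold, calls rose to 20 higher and 23 lower at P3 against P0, 20 and 18 at P7 against P0, 29 and 5 at P7 against P3, and to 12, 5 and 5 higher at P15 against P0, P3 and P7. A filter of 1 CPM in all 16 libraries, which removes members that are near 0 in 1 phase, left 2 lower at P3 and 2 lower at P7 against P0, 0 higher at P7 against P3 and at P15 against P3 and P7, 9 highest in P0 and 2 highest in P15. The treat test gave 1 lower at P7 against P0, 3 higher at P15 against P0, 0 higher at P7 against P3 and 1 higher at P15 against P7. A pseudocount of 5 CPM gave 3 higher at P15 against P0 and 0 higher at P7 against P3 and at P15 against P3 and P7, and one of 0.1 CPM gave 2 higher at P15 against P3. Members highest in P3 numbered 1 with no filter and with no variance trend, and quantile normalization left 2 highest in P15. With the replicate number as a block, from descriptions or titles, the counts of calls between phases were those of the fit without it (7 higher and 5 lower at P3 against P0), and members highest in P15 numbered 3 in place of 4, as they did with no filter, a shift to the same median and no variance trend. Deviations of same-numbered libraries of different phases had correlations of -0.15 to 0.22, and those of differently numbered libraries -0.15 to 0.15. These correlations cannot show whether same-numbered libraries were handled together.

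With each library left out in turn, calls ranged over 7 to 9 higher and 5 to 6 lower at P3 against P0, 26 to 27 lower and 3 to 5 higher at P15 against P0 (3 without P15 replicate 3), 27 to 28 lower and 1 to 2 higher at P15 against P3, and 29 to 30 lower at P15 against P7. Members highest in P3 ranged from 1 to 2 (1 without P3 replicate 2 or P7 replicate 2) and lowest in P7 from 0 to 1 (1 without P7 replicate 4), and 2 were higher at P15 against P3 without P3 replicate 3 or P15 replicate 4. Leaving out P0 replicate 2 was chosen after seeing the data. IFNB1, IFNL1 at P0 and IRF9 rest on few counts, and EPSTI1 at P15 has none to scale.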
